A study of Mus musculus with 4 samples.

Results

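The variable segments of the immunoglobulin kappa light chain (Igkv) were compared between Ppm1bfl/fl and Ppm1bCKO in 4 bulk RNA-seq libraries of mouse bone marrow, 2 of each genotype. Members were rows of the count table whose symbol begins with Igkv, whose annotated biotype is IG_V_gene and whose counts summed to 15 or more over the 4 libraries. Of 100 Igkv segments with that biotype 93 qualified, out of 55399 rows in all. The qualifying segments nearest to the minimum were Igkv4-92, Igkv4-51 and Igkv4-78, with 39, 40 and 48 summed counts. Those just under it were Igkv4-81, Igkv18-36 and Igkv8-26, with 11, 6 and 5.

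Ppm1b encodes a metal-dependent protein phosphatase. Ppm1bfl/fl denotes alleles flanked by loxP sites, and Ppm1bCKO a conditional knockout. The Cre line, its promoter, the age of the mice and the number of mice behind each library are not given in the sources used here, and a p-value here reflects just the variation among 4 libraries. How much of it lies between mice is not known, though counts of Y-linked genes, given at the end, show that the Ppm1bCKO libraries came from different mice. By the same counts sex was not balanced between the genotypes. Both genotypes were labelled as Lsk cells, a name generally used for stem and multipotent progenitor cells that lack lineage markers and carry Sca-1 and Kit.

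A kappa light chain is made when a developing B cell joins an Igkv segment to a joining segment (Igkj), after which the transcript is spliced to the constant exon of Igkc. Segments on the same strand as Igkc are joined by deleting the DNA in between, and segments on the opposite strand by inverting it. A B cell clone mostly uses a single kappa segment, and plasma cells, which secrete antibody, carry far more of its transcript than resting B cells do. Subgroups, given by the first number of the symbol, unite segments of similar sequence.

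The members lie on chromosome 6 (mm10) from 67609713 to 70704177, a span of 3.09 Mb that ends just before Igkc (70726435 to 70726966). They belong to 18 subgroups, 35 on the strand of Igkc and 58 on the opposite strand. Each has a short leader exon and a V exon of 284 to 321 bases, and exonic lengths run from 338 to 404 bases. The last 60 bases of the V exon are printed for 6 segments that lead the results (abundant, or far lower in Ppm1bCKO) and for Igkv4-55 and Igkv12-89, whose levels overlapped between genotypes. They come from the GENCODE M21 transcripts of the reference genome, 5′ to 3′ in the direction of the gene. Capitals run from the last in-frame TGT or TGC codon, which encodes the conserved cysteine, to the exon end, the germline part of the third complementarity-determining region. Over the 93 segments this stretch was 21 to 31 bases long, and 26 bases in 64 of them.
Igkv10-96 (chr6:68631963-68632260, minus strand): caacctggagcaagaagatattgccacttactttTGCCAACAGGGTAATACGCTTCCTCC
Igkv6-15 (chr6:70406469-70406766, minus strand): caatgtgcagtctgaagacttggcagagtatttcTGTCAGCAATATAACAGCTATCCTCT
Igkv6-23 (chr6:70260409-70260706, minus strand): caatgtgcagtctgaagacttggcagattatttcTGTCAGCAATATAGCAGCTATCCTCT
Igkv8-21 (chr6:70314895-70315207, minus strand): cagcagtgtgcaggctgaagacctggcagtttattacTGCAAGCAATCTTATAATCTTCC
Igkv3-10 (chr6:70572930-70573230, plus strand): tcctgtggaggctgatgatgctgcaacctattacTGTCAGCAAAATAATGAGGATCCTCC
Igkv4-58 (chr6:69500254-69500545, minus strand): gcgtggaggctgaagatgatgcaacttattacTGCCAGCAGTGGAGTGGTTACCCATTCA
Igkv4-55 (chr6:69607275-69607577, minus strand): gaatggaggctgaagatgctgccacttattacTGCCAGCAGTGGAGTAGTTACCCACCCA
Igkv12-89 (chr6:68834846-68835140, minus strand): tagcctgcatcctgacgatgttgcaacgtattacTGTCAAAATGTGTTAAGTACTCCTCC

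Transcripts of kappa segments were less abundant in both Ppm1bCKO libraries than in both Ppm1bfl/fl libraries. The members made up 0.5002% of counts in Ppm1bfl/fl replicate 1 (95% Wilson interval 0.498 to 0.503) and 0.307% in replicate 2 (0.305 to 0.308). In Ppm1bCKO they made up 0.129% in replicate 1 (0.127 to 0.130) and 0.133% in replicate 2 (0.131 to 0.134). The genotypes did not overlap, and the Ppm1bfl/fl libraries differed more from each other than the Ppm1bCKO libraries did. The mean was 0.403% ± 0.137 in Ppm1bfl/fl and 0.131% ± 0.0027 in Ppm1bCKO (SD, n = 2), a 3.09-fold higher share in Ppm1bfl/fl. A two-sided exact permutation test gave p = 0.333, the smallest value that 2 against 2 libraries allow. In bulk RNA, fewer cells of a type and less transcript per cell cannot be told apart.

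Of the 93 segments, 91 passed the low-count filter and were tested. Igkv4-92 was too low, and Igkv4-62 had 341 of its 358 counts in Ppm1bfl/fl replicate 2. Through Ppm1bfl/fl alone 4 of the 91 passed (Igkv3-3, Igkv6-29, Igkv8-34 and Igkv9-129). These had to be lower in Ppm1bCKO, and none of them is among the calls. By edgeR's quasi-likelihood test with Benjamini-Hochberg adjustment over 16393 genes, 17 segments fell in Ppm1bCKO and 0 rose, where 0.311% of all tested genes fell and 0.061% rose. An unadjusted p under 0.05 was reached by 60 segments, 0 of them higher in Ppm1bCKO, where 3.21% of all tested genes were lower and 3.23% higher at that p. DESeq2 called 50 segments lower (0.805% of all tested genes) and limma-voom 15 (0.256%), and neither called any higher. Leaving out Ppm1bfl/fl replicate 2 raised the edgeR count to 61 and that over all genes from 61 to 214, or 1.25% of those tested. Without Ppm1bfl/fl replicate 1 it was 37, and 145 over all genes (0.856%). The log2 fold change (Ppm1bCKO over Ppm1bfl/fl) was negative in 87 of the 91, beside 50.4% of all tested genes, with a median of -1.58 beside -0.0032. In 66 of the 91 both Ppm1bCKO libraries lay below both Ppm1bfl/fl libraries, beside 20.6% of all tested genes. The 87 and the 66 include the 4 that passed through Ppm1bfl/fl alone, whose direction was fixed in advance.

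The 17 segments that fell were 2.51-fold to 11.9-fold lower, with edgeR adjusted p from 0.00766 to 0.0462. Levels are TMM-normalised CPM (counts scaled to a common library total), and each ± after a log2 fold change is its standard error. Igkv4-58, of the largest subgroup, stood at 48.8 and 28.3 CPM in Ppm1bfl/fl, against 2.77 and 3.71 CPM in Ppm1bCKO. With -3.57 ± 0.32 it had the lowest log2 fold change of the 17 (edgeR adjusted p = 0.00766). The call of Igkv4-58 was lost without either Ppm1bCKO library, at edgeR adjusted p = 0.0599 without replicate 1 and 0.578 without replicate 2.

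Igkv3-10, close to the joining segments at 153.2 kb from Igkc, stood at 59.6 and 47.7 CPM in Ppm1bfl/fl, against 7.26 and 5.48 CPM in Ppm1bCKO. Its change, -3.08 ± 0.23 (edgeR adjusted p = 0.00766), remained past the threshold in all 11 alternatives tried. Igkv4-86 fell from 29.8 and 17.2 CPM to 2.24 and 2.66 CPM (-3.26 ± 0.32). Igkv4-74 fell from 20.7 and 17.8 CPM to 4.003 and 3.29 CPM (-2.40 ± 0.24). In each of these 3 segments the higher Ppm1bCKO library was well below the lower Ppm1bfl/fl library.

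Among abundant segments, Igkv5-43 stood at 133 and 160 CPM in Ppm1bfl/fl, against 27.2 and 19.3 CPM in Ppm1bCKO (-2.65 ± 0.22, edgeR adjusted p = 0.00766). Igkv6-15 stood at 186 and 146 CPM against 44.5 and 26.1 CPM (-2.23 ± 0.27, edgeR adjusted p = 0.0162). Igkv6-23 stood at 208 and 126 CPM against 44.5 and 42.6 CPM (-1.94 ± 0.25, edgeR adjusted p = 0.0191). Each had groups that did not overlap, but the call of Igkv6-23 was lost without either Ppm1bCKO library (edgeR adjusted p = 0.210 and 0.999). Igkv15-103, the sole member of its subgroup, stood at 101.2 and 123 CPM against 40.9 and 45.0 CPM. Igkv8-24 stood at 33.8 and 36.3 CPM against 8.97 and 9.23 CPM (-1.95 ± 0.19, edgeR adjusted p = 0.0105). The smallest folds among the calls were those of Igkv12-46 (-1.33 ± 0.19), Igkv14-111 (-1.38 ± 0.22) and Igkv15-103 (-1.39 ± 0.18).

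The remaining calls were Igkv5-45, Igkv4-70, Igkv8-27, Igkv6-25, Igkv6-20 and Igkv17-121, with log2 fold changes from -3.42 (Igkv5-45) to -1.84 (Igkv17-121). Over the 11 alternatives 11 of the 17 stayed past the threshold throughout, and all 17 stayed negative. Igkv14-111 was lost in 5 alternatives, Igkv6-25 in 4, and Igkv12-46 without Ppm1bfl/fl replicate 1 alone (-1.12, edgeR adjusted p = 0.0630). The call of Igkv4-86 did not hold when Ppm1bCKO replicate 2 was left out (-3.39, edgeR adjusted p = 0.288). The plot of the 17 segments by library shows the separation of the genotypes.

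**Figure D1:**
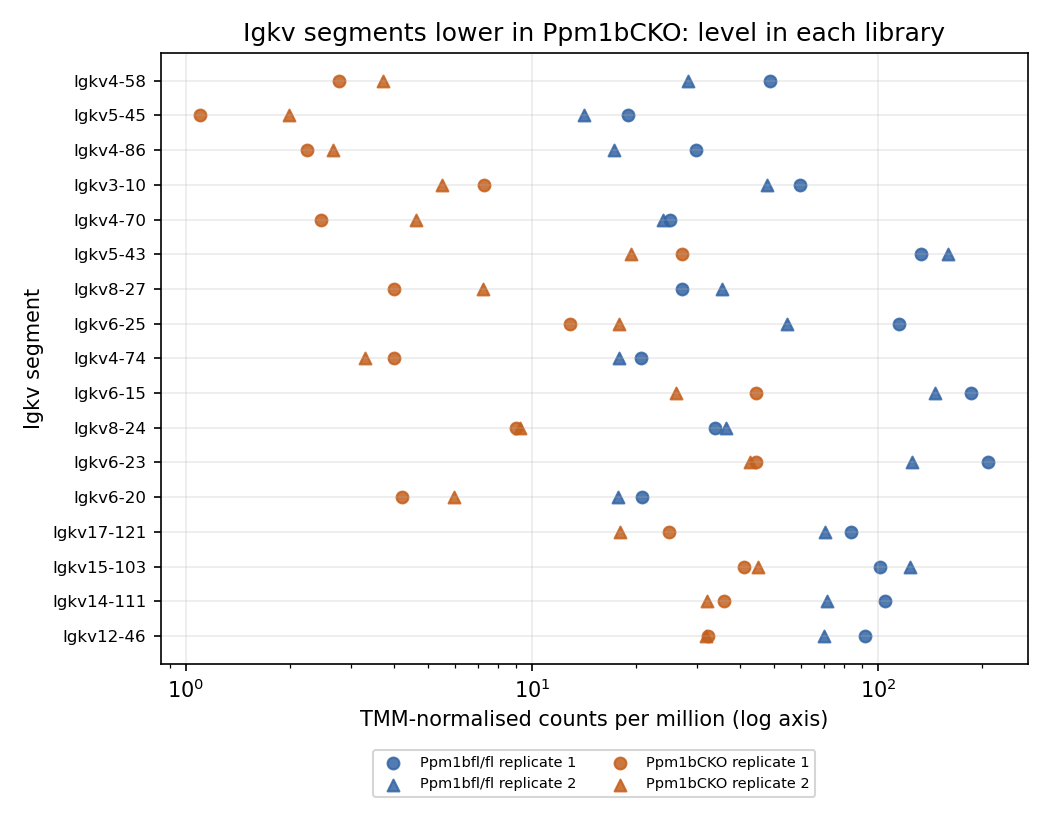
Level of the 17 Igkv segments that fell, 1 per line, in TMM-normalised CPM on a log axis; each point is a library (blue Ppm1bfl/fl, orange Ppm1bCKO, circles replicate 1, triangles replicate 2). In every line both orange points lie left of both blue ones, from 2.77 and 3.71 CPM against 48.8 and 28.3 CPM for Igkv4-58 at the top to Igkv12-46 at the bottom.

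The 4 lowest fold changes did not pass, and in each the Ppm1bfl/fl libraries lay far apart. Igkv8-21 stood at 230 and 78.9 CPM in Ppm1bfl/fl, against 4.398 and 10.997 CPM in Ppm1bCKO (-4.32 ± 0.78, edgeR adjusted p = 0.366). Igkv4-61 stood at 98.9 and 28.25 CPM against 4.13 and 3.54 CPM (-4.05 ± 0.67, edgeR adjusted p = 0.205). Igkv6-13 stood at 66.7 and 9.52 CPM against 1.28 and 2.11 CPM (-4.49 ± 1.18, edgeR adjusted p = 0.671). In all 3 the genotypes did not overlap, and Ppm1bfl/fl replicate 1 was the highest library. Igkv3-3, the segment with the lowest value (-5.19 ± 1.35, edgeR adjusted p = 0.435), had 121 and 17 counts against 3 and 0, and a count of 0 allows up to 3 counts. Both Ppm1bCKO values were under the filter's 0.393 CPM, so Igkv3-3 passed through Ppm1bfl/fl alone and its direction was fixed in advance.

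At the other end, 4 segments had a positive log2 fold change, and none of them passed. Igkv3-9 stood at 0.188 and 0.464 CPM in Ppm1bfl/fl, against 0.0880 and 1.64 CPM in Ppm1bCKO (1.39 ± 1.02). Igkv12-38 stood at 11.05 and 2.55 CPM against 2.55 and 17.4 CPM (0.56 ± 1.17). Igkv12-89 stood at 9.51 and 12.003 CPM against 21.1 and 8.385 CPM (0.45 ± 0.39). Igkv4-59 stood at 47.1 and 26.6 CPM against 29.7 and 50.8 CPM (0.13 ± 0.32). Their genotypes overlapped, and each of the 4 signs turned when a library was left out.

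Levels of segments were compared per kilobase of exon, averaged over the 4 libraries. Igkv10-96 was the highest at 424 CPM per kb, followed by Igkv6-15 (290), Igkv6-23 (285), Igkv1-117 (269), Igkv8-30 (237), Igkv5-43 (224), Igkv8-21 (212) and Igkv15-103 (207). Neighbours in this order were not told apart, since Igkv10-96 alone ranged from 372 to 45.0 CPM between libraries. Igkv10-96 stood at 372 and 109 CPM in Ppm1bfl/fl, against 83.3 and 45.0 CPM in Ppm1bCKO, without overlap and without a call (-1.91 ± 0.71, edgeR adjusted p = 0.717). The lowest member was Igkv4-51, at 0.989 CPM per kb. Of the 12 segments with the highest mean CPM, 5 fell: Igkv5-43, Igkv6-15, Igkv6-23, Igkv15-103 and Igkv14-111. The other 7 were Igkv10-96, Igkv1-117, Igkv8-30, Igkv8-21, Igkv1-135, Igkv1-110 and Igkv12-44, all with both Ppm1bCKO libraries below both Ppm1bfl/fl libraries. That was so in 66 of the 91 tested members and in 20.6% of all tested genes.

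By subgroup, the shares of kappa segment counts did not overlap between genotypes in 6 of 18, with Igkv6 and Igkv8 lower in Ppm1bCKO and Igkv1, Igkv12, Igkv14 and Igkv19 higher. Over all tested genes the levels did not overlap in 20.6% downward and 20.6% upward, so this number is no result about the subgroups, and their values are given as a description. Shares within Igkv sum to 100% in each library, so they describe composition and not level, and 95% Wilson intervals of the subgroup shares reach at most 0.462 percentage points to either side. They cover counting error only, since repeated reads of 1 molecule cannot be recognised in counts. No test was run on these shares.

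Igkv6, with 9 segments, made up 15.7% and 16.1% of Igkv counts in the Ppm1bfl/fl libraries and 13.2% and 10.4% in the Ppm1bCKO libraries. Its summed level was 4.05-fold lower, 4 of its 9 tested segments fell, and all 9 had groups that did not overlap. For Igkv6-29 (39 and 25 counts against 3 and 7) this was fixed in advance, since it passed the low-count filter through Ppm1bfl/fl alone. Over all 91 tested members 17 fell and 66 did not overlap downward, beside 0.311% and 20.6% of all tested genes. Igkv8, also with 9 segments, went from 11.3% and 9.17% to 6.24% and 6.23%. Its summed level was 5.02-fold lower, and 2 of 9 segments fell, Igkv8-24 and Igkv8-27. Igkv8-21 alone went from 4.71% and 2.58% of Igkv counts to 0.347% and 0.792%, a difference of the means of -3.08 percentage points out of -4.001 for its subgroup.

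Igkv1, with 8 segments, made up 10.3% and 9.42% in Ppm1bfl/fl and 11.99% and 14.03% in Ppm1bCKO, and its summed level was 2.28-fold lower. None of its segments fell by edgeR, and all 8 log2 fold changes were negative. Its leading segments were Igkv1-117 (201 and 120 CPM against 37.3 and 77.2 CPM), Igkv1-135 (134 and 69.4 CPM against 37.9 and 52.4 CPM) and Igkv1-110 (96.5 and 72.2 CPM against 44.6 and 51.2 CPM). Igkv14, with 4 segments, went from 4.52% and 4.16% to 7.52% and 5.32%, and Igkv12, with 6, from 5.996% and 5.94% to 6.64% and 8.88%. In both the shares of the genotypes did not overlap, and without Ppm1bCKO replicate 2 the difference of Igkv12 went from 1.79 to 0.673 percentage points. Igkv19-93, alone in its subgroup, also had a larger share in both Ppm1bCKO libraries (1.41% and 0.958% against 1.53% and 1.51%), while its level was lower (-1.28 ± 0.36, edgeR adjusted p = 0.475).

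Igkv4, the largest subgroup with 25 segments, all on the strand opposite to Igkc, overlapped between genotypes. It made up 16.5% and 17.9% in Ppm1bfl/fl against 17.1% and 24.1% in Ppm1bCKO. Its tested segments ran from -4.05 (Igkv4-61) to 0.13 (Igkv4-59), and 4 of 23 fell. Igkv4-55 made up 5.62% of Igkv counts in Ppm1bCKO replicate 2 and was its most used segment, against 1.30% in replicate 1 (41.5 and 53.9 CPM in Ppm1bfl/fl, 16.5 and 78.1 CPM in Ppm1bCKO). Igkv3, whose 9 segments lie nearest to Igkc, went from 7.15% and 6.85% to 7.12% and 5.24%, and 1 of 9 fell. Its most abundant member was Igkv3-2 (95.9 and 51.2 CPM against 30.7 and 12.9 CPM). Igkv5 had 2 of 5 segments that fell, Igkv5-43 and Igkv5-45, and its shares overlapped (5.65% and 8.24% against 5.83% and 4.74%).

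**Figure D2:**
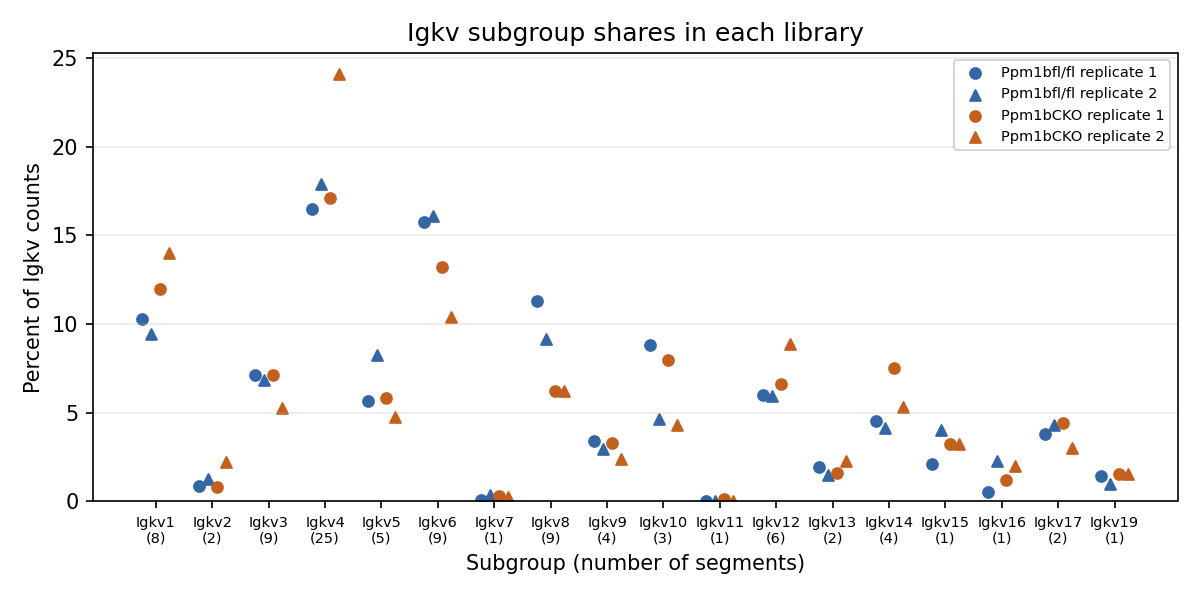
Share of Igkv counts (percent, linear axis from 0) of the 18 subgroups in each library; numbers in brackets count segments, and colours and markers are those of the levels plot. Igkv6 and Igkv8 are lower in both Ppm1bCKO libraries, Igkv1, Igkv12 and Igkv14 higher, and Igkv4 is set apart by Ppm1bCKO replicate 2 at 24.1%.

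The remaining subgroups hold 1 to 4 segments each, and their leading members were not called by edgeR, apart from Igkv15-103. Without a call, Igkv9-120 and Igkv17-127 were still lower in both Ppm1bCKO libraries than in both Ppm1bfl/fl libraries. Igkv9-120 stood at 99.1 and 53.7 CPM in Ppm1bfl/fl against 24.1 and 16.1 CPM in Ppm1bCKO (-1.93 ± 0.31, edgeR adjusted p = 0.0577). Igkv17-127 stood at 100.9 and 61.6 CPM against 31.0 and 23.4 CPM, and the second segment of its subgroup, Igkv17-121, fell (83.8 and 70.4 CPM against 24.9 and 18.0 CPM). The levels of Igkv13-85, Igkv16-104, Igkv2-109, Igkv7-33 and Igkv11-125 overlapped between genotypes, with log2 fold changes from -1.54 (Igkv13-85) to -0.26 (Igkv11-125).

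Along the locus, the 30 segments within 782.8 kb of Igkc made up a smaller share in Ppm1bCKO and the 18 farthest a larger one. There was no such order between them, and no test was run. The 55 segments between 22.3 and 1541 kb from Igkc made up 58.8% and 60.3% of Igkv counts in Ppm1bfl/fl and 51.5% and 56.3% in Ppm1bCKO. The genotypes did not overlap, with means of 59.6% ± 1.1 and 53.9% ± 3.4 (SD, n = 2). The difference, -5.69 percentage points, was -3.28 without Ppm1bCKO replicate 1. Of the -5.69 points, -3.08 came from Igkv8-21 alone, which was not called. Of the tested segments in this stretch 13 of 54 fell, with a median log2 fold change of -1.84. Beyond 1666 kb 4 of 37 fell, with a median of -1.49. Over all tested genes 0.311% fell. Split at the middle segment by number instead, the difference in share was -6.66 percentage points in place of -5.69.

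The 30 segments within 782.8 kb of Igkc, which hold the Igkv3, Igkv6 and Igkv8 subgroups, differed most. They made up 34.5% and 32.8% of Igkv counts in Ppm1bfl/fl and 27.1% and 23.4% in Ppm1bCKO, and their summed level was 4.02-fold lower. The difference of their share was -8.39 percentage points, of which Igkv8-21 alone held -3.08. The next 25, from 825.5 to 1541 kb, did not share this and had 24.4% and 27.6% against 24.4% and 32.9%, a difference of 2.70 percentage points. The 20 beyond them, from 1666 to 2300 kb, overlapped (20.1% and 19.1% against 24.2% and 18.0%). The 18 segments farthest away, from 2423 to 3116 kb, went from 21.1% and 20.6% to 24.3% and 25.7% and were 2.49-fold lower. Position and subgroup go together in this locus and cannot be told apart here. Across the 91 tested segments the Spearman correlation between log2 fold change and distance was 0.21, as a description over segments that share the same 4 libraries.

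Segments on the strand of Igkc made up 35.1% and 38.8% of Igkv counts in Ppm1bfl/fl and 40.8% and 39.7% in Ppm1bCKO, so the genotypes did not overlap but lay close to each other, and the difference of 3.31 percentage points was 1.43 without Ppm1bfl/fl replicate 1. Of the tested segments 5 of 35 fell on that strand and 12 of 56 on the opposite one, with median log2 fold changes of -1.49 and -1.67. The share that fell over all tested genes was 0.311%.

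**Figure D3:**
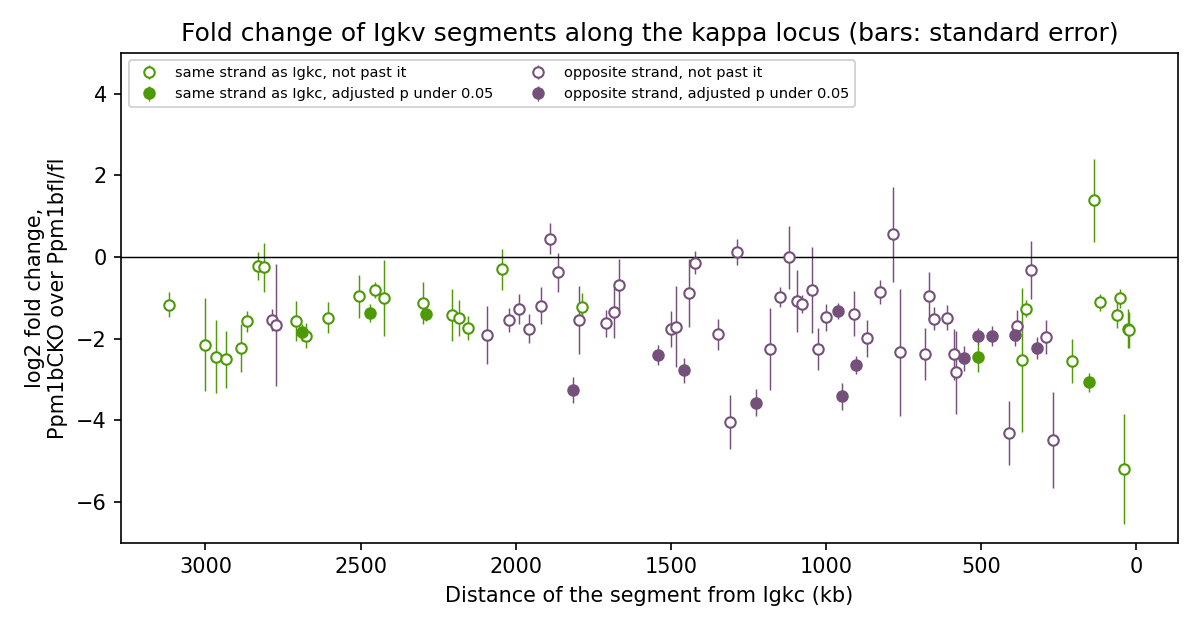
Log2 fold change of the 91 tested segments (error bars, standard errors) against their distance from Igkc in kb, nearest at the right; green, strand of Igkc, purple, opposite strand, filled, past the threshold of 0.05. Filled points lie between 153.2 kb (Igkv3-10) and 2689 kb (Igkv17-121) from Igkc, 13 of them within 1541 kb, and none beyond 2689 kb. Above 0 lie 4 points.

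The evenness of segment use lay close together in the 4 libraries. The effective number of segments, which is the exponential of the Shannon entropy and would be 93 if all were used equally, was 54.1 and 57.1 in Ppm1bfl/fl and 53.1 and 52.4 in Ppm1bCKO. The means, 55.6 ± 2.1 and 52.7 ± 0.47 (SD, n = 2), differed by -2.91, with two-sided exact permutation p = 0.333. The inverse Simpson number, which weights abundant segments more, overlapped (40.2 and 44.8 against 41.8 and 39.9). When each library was thinned to 28833 Igkv counts, 91.9 and 91.8 segments were expected in Ppm1bfl/fl and 93.0 and 91.0 in Ppm1bCKO.

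The 5 most used segments of a library held 24.5% and 22.1% of Igkv counts in Ppm1bfl/fl and 20.8% and 22.6% in Ppm1bCKO. Between 15 and 17 segments made up the first 50% in each library. The most used segment was Igkv10-96 in Ppm1bfl/fl replicate 1 (7.61%) and in Ppm1bCKO replicate 1 (6.57%), Igkv5-43 in Ppm1bfl/fl replicate 2 (5.23%) and Igkv4-55 in Ppm1bCKO replicate 2 (5.62%).

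**Figure D4:**
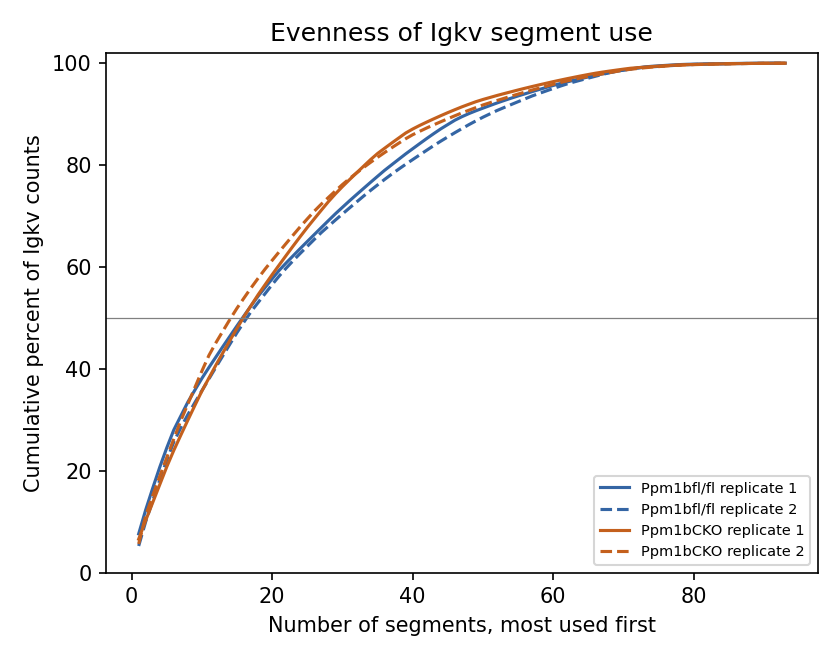
Cumulative percent of Igkv counts against the number of segments, ordered from the most used in each library (solid lines replicate 1, dashed lines replicate 2, blue Ppm1bfl/fl, orange Ppm1bCKO). The 4 curves lie close together and cross the grey line at 50% between 15 and 17 segments.

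Use of single segments also varied between replicates. The overlap of 2 libraries, the sum over segments of the smaller of their shares, was 80.5% for the Ppm1bfl/fl libraries and 77.4% for the Ppm1bCKO libraries. Between genotypes it was 71.0% to 77.6%. The Pearson correlation of log2 shares over the 93 segments was 0.80 and 0.88 within genotypes and 0.81 to 0.88 between them, as a description. Between replicates the median segment differed 1.58-fold in share in Ppm1bfl/fl and 1.55-fold in Ppm1bCKO.

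Some segments were nearly confined to 1 library of a genotype. Among segments with 50 or more counts in a genotype, 13 of 87 differed over 4-fold in share between the Ppm1bfl/fl libraries and 6 of 77 between the Ppm1bCKO libraries. The largest gaps, in segments chosen after their values were seen, were those of Igkv4-62 (6 and 341 counts in Ppm1bfl/fl), Igkv8-18 (113 and 1) and Igkv5-37 (4 and 192). In Ppm1bCKO the same 3 segments had 8 and 3, 6 and 11, and 16 and 14 counts. Abundant segments differed too, such as Igkv6-13 (1776 and 287 counts) and Igkv16-104 (671 and 2063) in Ppm1bfl/fl. The largest gap in Ppm1bCKO was that of Igkv9-123 (10 and 94 counts), which also differed in Ppm1bfl/fl (343 and 36).

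**Figure D5:**
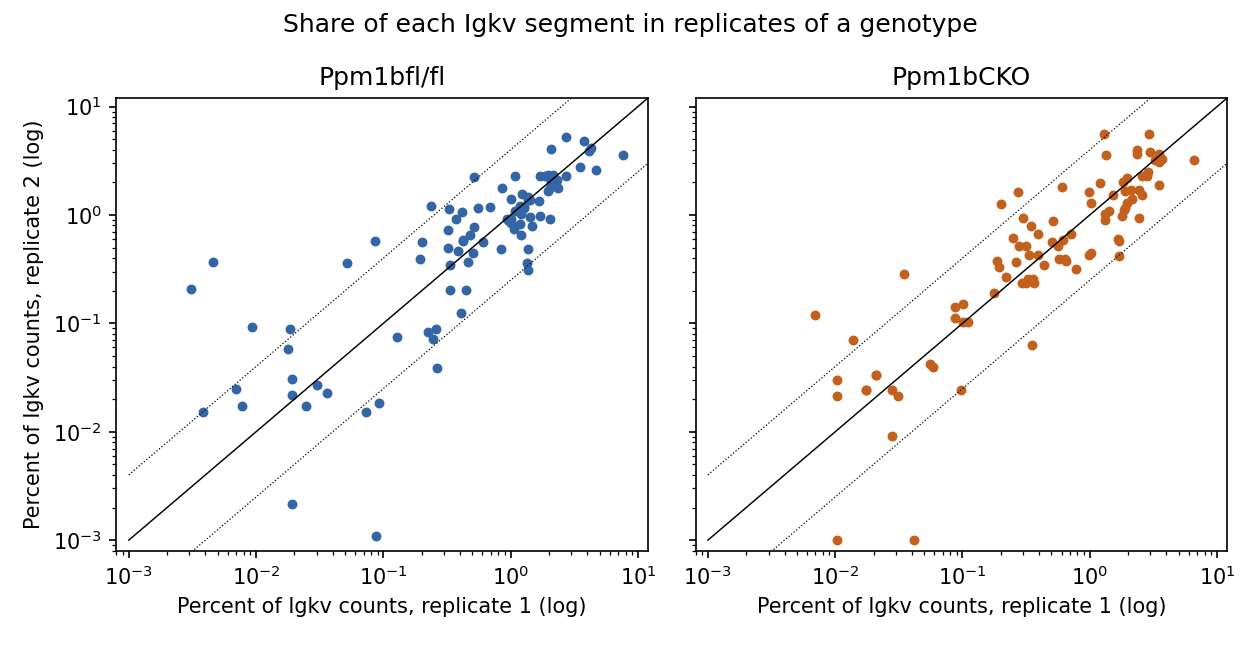
Share of each of the 93 segments (percent of Igkv counts, both axes log) in replicate 1 against replicate 2, for Ppm1bfl/fl (left) and Ppm1bCKO (right); the solid line marks equal shares, the dotted lines a 4-fold gap, and shares under 0.001% are drawn there. Igkv4-62 and Igkv8-18 are about 80-fold apart in Ppm1bfl/fl, and some abundant segments also lie outside the dotted lines, such as Igkv4-55 in Ppm1bCKO (1.30% and 5.62%).

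Relative to the other kappa segments, 17 had a lower share in both Ppm1bCKO libraries than in both Ppm1bfl/fl libraries (18.3% of 93), and 16 a higher one (17.2%). Neither exceeded the 20.6% of all tested genes whose levels did not overlap in that direction, so the segments are named as a description. Of the 17 with a lower share 11 are among the calls. The largest losses after Igkv8-21 were those of Igkv5-43 (-2.20 percentage points), Igkv6-15 (-1.60) and Igkv4-61 (-1.18). The largest gains were those of Igkv4-59 (2.08), Igkv4-68 (1.92) and Igkv14-126 (1.70), chosen after their values were seen. Igkv14-126 went from 1.18% and 0.819% to 2.89% and 2.50% of Igkv counts. Igkv12-46 fell in level and still had a larger share in both Ppm1bCKO libraries, 1.87% and 2.28% against 2.55% and 2.29%.

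Sequence likeness limits how well single segments can be separated. Each V exon was aligned with those of the other 159 Igkv entries, pseudogenes included. The closest entry was 93.3% identical in the median, from 75.8% (Igkv16-104) to 99.0%, and for 7 members it was 97% or more. The closest pair, Igkv5-43 and Igkv5-45, lie 47.6 kb apart and both fell. Their V exons differ at 3 bases, printed in capitals, so how their reads were shared out is uncertain.
Igkv5-43 (chr6:69823355-69823652, minus strand): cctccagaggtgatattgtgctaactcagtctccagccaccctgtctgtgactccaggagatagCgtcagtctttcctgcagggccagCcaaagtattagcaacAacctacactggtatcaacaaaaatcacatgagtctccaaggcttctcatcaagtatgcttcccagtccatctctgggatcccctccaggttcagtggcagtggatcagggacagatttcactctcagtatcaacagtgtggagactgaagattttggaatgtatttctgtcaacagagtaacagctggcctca
Igkv5-45 (chr6:69775750-69776047, minus strand): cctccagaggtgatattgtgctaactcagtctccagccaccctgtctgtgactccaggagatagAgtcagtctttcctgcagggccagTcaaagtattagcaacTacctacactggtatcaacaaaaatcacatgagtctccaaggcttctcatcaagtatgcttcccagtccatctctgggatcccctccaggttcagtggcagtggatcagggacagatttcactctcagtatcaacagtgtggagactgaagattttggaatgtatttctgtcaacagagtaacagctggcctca

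Similar segments did not always have similar fold changes. Igkv4-70 and Igkv4-59, 170.3 kb apart, are 96.0% identical over the V exon, with 8 substitutions and 4 bases present only in Igkv4-59, where its annotated exon runs on. Both V exons are printed, Igkv4-59 without those last 4 bases, with the bases that differ in capitals, because the pair separates in the data.
Igkv4-70 (chr6:69267888-69268186, minus strand): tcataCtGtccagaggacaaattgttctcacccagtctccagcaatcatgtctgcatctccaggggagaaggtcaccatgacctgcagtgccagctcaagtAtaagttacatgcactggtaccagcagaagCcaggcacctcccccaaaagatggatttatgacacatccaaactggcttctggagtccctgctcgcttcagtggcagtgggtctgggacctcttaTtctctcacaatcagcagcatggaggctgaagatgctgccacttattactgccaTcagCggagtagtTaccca
Igkv4-59 (chr6:69438218-69438520, minus strand): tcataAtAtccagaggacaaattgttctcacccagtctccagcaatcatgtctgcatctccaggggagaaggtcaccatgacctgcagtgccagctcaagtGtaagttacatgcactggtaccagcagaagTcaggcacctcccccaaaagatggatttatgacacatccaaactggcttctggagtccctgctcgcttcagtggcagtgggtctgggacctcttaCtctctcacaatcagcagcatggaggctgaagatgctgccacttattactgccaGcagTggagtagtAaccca
Igkv4-70 stood at 24.99 and 23.9 CPM in Ppm1bfl/fl, against 2.46 and 4.63 CPM in Ppm1bCKO (-2.78 ± 0.31, edgeR adjusted p = 0.0126), while Igkv4-59 overlapped as given above. Counts of Igkv4-70 were 0.531 and 0.898 times those of Igkv4-59 in the Ppm1bfl/fl libraries and 0.0828 and 0.0912 times in the Ppm1bCKO libraries. Both were named by the rule for the extremes and the calls, but the pair was chosen after its values were seen, and its difference was not tested. Over the 18 pairs of tested members at 95% identity or more, the log2 fold changes differed by 0.87 in the median, beside 0.88 over all 4095 pairs of tested members.

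The constant and lambda genes were described beside the segments. Igkc stood at 8609 and 5127 CPM in Ppm1bfl/fl, against 1711 and 2638 CPM in Ppm1bCKO (-1.66 ± 0.33, edgeR adjusted p = 0.136), without overlap. The summed Igkv level was 0.568 and 0.596 of that of Igkc in Ppm1bfl/fl and 0.741 and 0.526 in Ppm1bCKO. The 5 joining segments stood at 0.431 to 3.23 CPM. Of the 6 constant and joining genes 0 changed by edgeR or limma-voom and 1 by DESeq2, with 1 at an unadjusted p under 0.05 in edgeR. Of 7 tested lambda genes 1 fell, the variable segment Iglv1 (277 and 249 CPM against 81.6 and 113 CPM, edgeR adjusted p = 0.0307), and 0 rose. DESeq2 called 2 lambda genes and limma-voom 1, with 3 at an unadjusted p under 0.05 in edgeR. Over all tested genes 0.311% fell and 0.061% rose by edgeR, and 3.21% were lower at that unadjusted p. DESeq2 called 1.21% of them and limma-voom 0.305%.

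Markers of the cells that carry kappa transcripts moved in different directions. Of 12 plasma cell markers 10 had a negative log2 fold change, none was at 0, and their summed level was 1806 to 2918 CPM in Ppm1bfl/fl and 843 to 1072 CPM in Ppm1bCKO. By edgeR 0 changed (4 at an unadjusted p under 0.05, 2 by DESeq2, 0 by limma-voom). Over all tested genes 3.21% were lower at that unadjusted p, and DESeq2 called 1.21%. Most of this sum in each library was Jchain, which encodes the chain that links IgA and IgM units. It stood at 2448 and 1377 CPM against 463 and 624 CPM (-1.82 ± 0.30, edgeR adjusted p = 0.0638). The sum therefore mainly describes Jchain and not the list. The median log2 fold change of the 12 markers was -0.36, and 2 were positive. In 6 of the 12 both Ppm1bCKO libraries lay below both Ppm1bfl/fl libraries, beside 20.6% of all tested genes. For B cells all 14 markers were positive, none was at 0, and their summed level was 367 to 375 CPM against 527 to 987 CPM. Over all tested genes 50.4% were negative. In 13 of the 14 both Ppm1bCKO libraries lay above both Ppm1bfl/fl libraries, beside 20.6% of all tested genes. By edgeR 0 changed (11 at an unadjusted p under 0.05, 8 by DESeq2, 0 by limma-voom). Over all tested genes 3.23% were higher at that unadjusted p, and DESeq2 called 1.21%. Cd72, a surface receptor of B cells, stood at 22.5 and 27.3 CPM against 49.3 and 90.3 CPM (edgeR adjusted p = 0.117). The part of either cell type in the Igkv result was not tested.

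Genes that act before or during kappa joining had values in both directions. Of 11 surrogate light chain and recombination genes 8 had a positive log2 fold change and 3 a negative one, beside 50.4% negative over all tested genes. In 7 both Ppm1bCKO libraries lay above both Ppm1bfl/fl libraries, beside 20.6% of all tested genes. By edgeR, DESeq2 or limma-voom 0 changed, with 6 at an unadjusted p under 0.05 in edgeR, where 3.23% of all tested genes were higher. The 2 genes named next are among those of smallest p. Rag1, which encodes part of the recombinase, stood at 17.5 and 17.7 CPM in Ppm1bfl/fl against 25.2 and 38.8 CPM in Ppm1bCKO. Vpreb1, which encodes part of the surrogate light chain, stood at 4.77 and 4.44 CPM against 6.47 and 9.65 CPM. Of 23 regulators of the kappa locus 13 were positive and 10 negative, with a median of 0.01, and 0 changed by edgeR or limma-voom. DESeq2 called 2 (1.21% of all tested genes), and 4 were at an unadjusted p under 0.05 in edgeR (3.23% higher over all tested genes). Those of smallest p were the transcription factor genes Pax5 (35.1 and 42.8 CPM against 67.2 and 99.1 CPM), Ebf1 (20.4 and 23.3 CPM against 38.1 and 77.5 CPM) and Irf4 (83.6 and 76.3 CPM against 102.4 and 143 CPM).

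The libraries also held RNA of mature blood cells beside the labelled Lsk cells. The 11 markers of Lsk and multipotent cells were all present, at 381 to 575 CPM in sum, beside 7074 to 15504 CPM for 8 erythroid markers and 4005 to 5010 CPM for 7 neutrophil markers. Macrophage markers were at 859 to 891 CPM in Ppm1bfl/fl and 512 to 631 CPM in Ppm1bCKO (12 of 12 negative). Eosinophil markers were at 2771 to 3020 CPM and 4129 to 7241 CPM (6 of 7 positive, beside 50.4% negative over all tested genes). Without overlap, 9 of the 12 were lower and 6 of the 7 higher, beside 20.6% of all tested genes each way. Neither list had an edgeR or limma-voom call. At an unadjusted p under 0.05 were 6 and 4 (3.21% of all tested genes lower, 3.23% higher). DESeq2 called 4 and 4 (1.21% of all tested genes). Total counts were 22393973 to 30045382 per library. Counts of 4 Y-linked genes were 5870 to 6396 in 3 libraries and 2 in Ppm1bCKO replicate 2, so the Ppm1bCKO libraries did not come from the same mouse. Ppm1bCKO replicate 2 alone was thus nearly without Y-linked transcripts, as a female is. Sex therefore differed within Ppm1bCKO and was not balanced between the genotypes, and its part in the differences was not tested.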

How the data were processed

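Expression was measured by bulk RNA-seq in 2 Ppm1bfl/fl and 2 Ppm1bCKO libraries. The deposited table holds raw counts per gene (whole numbers), made, per the submitters' processing notes, with HISAT2 2.2.0 on mm10, featureCounts 2.0.1 and Trim Galore 0.6.7. Which annotation release, strand setting and rule for reads with several matches were used is not stated in any source at hand; these decide how reads of similar segments, or reads spanning V, J and C parts, were counted. The table's exonic lengths, per the file headers, were used for levels per kilobase.

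Symbols and biotypes came from GENCODE M21 (55139 of 55399 identifiers matched, all Igkv entries among them). The main test was edgeR's (version 4.0.16, R 4.3.3; TMM, filterByExpr with a minimum count of 10 and total of 15, robust quasi-likelihood fit, no covariates, Benjamini-Hochberg threshold 0.05). On simulated counts of 13855 genes for this comparison 50 of 100 true 2-fold and 99 of 100 true 4-fold differences were found, and 3 calls were false. Replicates differed beyond sampling noise. Chi-square per degree of freedom over Igkv members was 165 in Ppm1bfl/fl and 55.4 in Ppm1bCKO, beside 22.9 and 47.8 over all genes. V exons were aligned with edlib 1.3.9.post1. Alternatives were DESeq2 1.42.0, limma-voom 3.58.1, DESeq2 size factors, TMM without immunoglobulin genes, 2 other filters, a replicate block and each library left out.

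The members, lists and tests were chosen with earlier results of these data known. Named segments were the calls, the 12 with the highest mean CPM, the 4 highest and 4 lowest fold changes, the most abundant of each subgroup and those nearest to the count minimum; in the other lists up to 4 genes of smallest p could be named.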

Additional observations from a re-analysis of the deposited data

How the results depend on the processing

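The 17 Igkv segments called lower by edgeR, beside 61 calls over all genes, became 50 with DESeq2 (199 over all genes), 57 without the low-count filter (311) and 16 to 61 when a library was left out (94 to 3336), with 37 without Ppm1bfl/fl replicate 1 and 61 without Ppm1bfl/fl replicate 2. With the replicate number as a block there were 46, 16 of them among the 17, and 207 over all genes. Replicate numbers share only a number (correlation of the deviations of same-numbered libraries 0.064 over all tested genes), so the block says nothing firm about the pairing. Without Ppm1bCKO replicate 1, a fit that called 3336 of 17177 genes (19.4%), Igkv3-9 (2.29) and Igkv4-55 (0.71) were called higher, and without Ppm1bfl/fl replicate 1 Igkv12-38 (1.96) was; none was in the full fit. A library that stands alone for its genotype is assumed to vary like the others.

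Positive values numbered 4 of 91 tested segments, and 11 of 93, 7 of 90, 5 of 93 and 3 of 93 without Ppm1bfl/fl replicates 1 and 2 and Ppm1bCKO replicates 1 and 2. Among the named uncalled segments, signs turned as follows (ranges over the libraries left out: Igkv4-51 -1.86 to 1.99, Igkv4-59 -0.31 to 0.59, Igkv12-38 -1.41 to 1.96, Igkv4-55 -1.53 to 0.71, Igkv7-33 -1.66 to 0.46, Igkv12-89 -0.36 to 0.97, Igkv3-9 -1.86 to 2.29, Igkv11-125 -1.46 to 0.40): without Ppm1bfl/fl replicate 1, Igkv4-51 (1.99); without Ppm1bfl/fl replicate 2, Igkv4-59 (-0.23), Igkv12-38 (-0.15), Igkv4-55 (0.19) and Igkv7-33 (0.46); without Ppm1bCKO replicate 1, Igkv12-89 (-0.36) and Igkv4-55 (0.71); without Ppm1bCKO replicate 2, Igkv4-59 (-0.31), Igkv12-38 (-1.41), Igkv3-9 (-1.86) and Igkv11-125 (0.40). The difference in effective number of segments, -2.91, was -4.42 to -1.40 with a library left out; the number of segments expected after thinning, another measure, differed by 0.149, the opposite sign. The causes were not tested. With 2 libraries a genotype, leaving 1 out moves a difference of shares by a fixed part of the gap between replicates and shows nothing about stability; without Ppm1bCKO replicate 2 the differences of Igkv3 and Igkv4 changed sign (0.120 and -0.0672 percentage points).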

Other observations

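Igkv entries annotated as pseudogenes carried few counts, 47 and 55 in Ppm1bfl/fl and 12 and 48 in Ppm1bCKO over 60 entries, beside 28833 to 130074 counts over the 93 segments. The highest pseudogene, Igkv4-77, had 12 and 14 counts in Ppm1bfl/fl and 0 and 14 in Ppm1bCKO. The 7 Igkv segments under the count minimum held 5 and 4 counts in Ppm1bfl/fl and 16 and 9 in Ppm1bCKO, 8 of them from Igkv4-81 in Ppm1bCKO replicate 1. The members made up 14.8% and 14.3% of all immunoglobulin counts in Ppm1bfl/fl and 15.7% and 13.6% in Ppm1bCKO. Log2 fold change had a Spearman correlation of -0.01 with mean CPM and of -0.09 with the GC content of the V exon over the 91 tested segments, as a description.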
